A study of Mus musculus with 12 samples.

Results

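A set of 10 genes of myeloid cell surface receptors and their partners, Trem1, Siglece, Cd300a, Cd300lf, Pilra, Cd101, Mcemp1, Dcstamp, Sirpa and Tyrobp, was followed in dendritic cells (DCs) of the mouse gut, 10 of the 53801 genes in the count files. They were picked by name from a list drawn up with the fold changes of these same samples known. Their levels, fold changes and calls are therefore a description here, and no p-value is given for them. From the intestine of wild-type (WT) mice and of mice labelled Cbfb-cKO, CD103+CD11b- DCs and CD103-CD11b+ DCs were sorted for RNA-seq, with 3 samples in each of the 4 groups and 12 in all. In the Cbfb-cKO mice the Cbfb gene, flanked by loxP sites on both alleles, is deleted by Cre recombinase from a CD11c-Cre transgene, which the study also found to act to some extent in gut CD4 T cells. All mice were labelled as of mixed background, and the study gives a young adult age for its gut DC analyses without tying it to the sequenced mice. Whether the WT mice carried the Cre transgene was not given in the sources used here. Both subsets are conventional DCs: CD103+CD11b- cells are the cDC1 type and CD103-CD11b+ cells belong to the cDC2 type. The study states that the samples of a group came from different mice, and no label says which samples share a mouse.

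Paired receptors are families in which closely related members send opposite signals into the same cell. Inhibitory members carry tyrosine motifs called ITIMs in their cytoplasmic tails, which recruit the phosphatases SHP-1 and SHP-2. Activating members have short tails and signal through adaptors such as DAP12, the product of Tyrobp, whose ITAM motif recruits the kinase Syk. In this list TREM-1 is an activating receptor and DAP12 its adaptor. Siglec-E, CD300a, CD300LF (CLM-1), PILRα and SIRPα are ITIM-bearing inhibitory receptors, and CD101 is an immunoglobulin superfamily protein with inhibitory activity. Mcemp1 and Dcstamp encode other myeloid transmembrane proteins, DC-STAMP being known for its part in the fusion of osteoclasts and macrophages, and neither is a paired receptor.

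Cbfβ binds no DNA of its own and is the partner of the Runx transcription factors, whose core site is often written TGTGGT or TGCGGT. RefSeq windows of GRCm38.p6, from 250 bases before to 50 bases after the annotated start, were matched by symbol for 7 of the 10 genes. TGTGGT, read on both strands, was in 4 of the 7 windows and in 16.8% of 32851 windows of the same length over all genes. Counted by gene, since a gene can have several windows, it was in 18.9% of 27025 genes. TGCGGT was in 0 of the 7, in 6.45% of all windows and in 7.34% of the genes. GAGGAA, a core of sites bound by the myeloid ETS factor PU.1, was in 6 of the 7, Mcemp1 being the exception. It was in 28.3% of all windows and in 31.25% of the genes. Such matches describe letters in a window, and the absence of one says only that those letters are not in this window. The 4 windows with TGTGGT are shown with that of Trem1, which had the lowest count of the 10 genes in Cbfb-cKO CD103+CD11b- DCs and no TGTGGT match. They lie at chr17:48232489-48232788 on the plus strand for Trem1, chr11:115133943-115134242 on the minus strand for Cd300lf, chr5:137836229-137836528 on the minus strand for Pilra, chr3:101029504-101029803 on the minus strand for Cd101 and chr8:3665512-3665811 on the plus strand for Mcemp1. Each is written 5′ to 3′ on the strand of its gene, and capitals mark TGTGGT or its reverse complement ACCACA.
Trem1: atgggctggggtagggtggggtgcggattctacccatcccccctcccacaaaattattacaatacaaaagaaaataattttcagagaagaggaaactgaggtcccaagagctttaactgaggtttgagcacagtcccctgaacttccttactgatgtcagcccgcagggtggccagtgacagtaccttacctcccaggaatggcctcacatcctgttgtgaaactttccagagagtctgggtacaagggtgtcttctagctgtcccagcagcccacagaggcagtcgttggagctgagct
Cd300lf: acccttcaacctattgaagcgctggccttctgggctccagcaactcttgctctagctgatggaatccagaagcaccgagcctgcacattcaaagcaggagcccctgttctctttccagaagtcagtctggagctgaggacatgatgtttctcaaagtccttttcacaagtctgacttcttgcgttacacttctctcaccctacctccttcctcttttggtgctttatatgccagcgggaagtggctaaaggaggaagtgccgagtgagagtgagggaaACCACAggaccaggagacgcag
Pilra: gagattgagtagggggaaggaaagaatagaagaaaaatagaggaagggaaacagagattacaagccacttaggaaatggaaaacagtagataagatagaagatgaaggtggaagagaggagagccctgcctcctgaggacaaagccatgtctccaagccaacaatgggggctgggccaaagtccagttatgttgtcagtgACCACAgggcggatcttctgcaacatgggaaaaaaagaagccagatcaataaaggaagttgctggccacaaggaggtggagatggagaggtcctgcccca
Cd101: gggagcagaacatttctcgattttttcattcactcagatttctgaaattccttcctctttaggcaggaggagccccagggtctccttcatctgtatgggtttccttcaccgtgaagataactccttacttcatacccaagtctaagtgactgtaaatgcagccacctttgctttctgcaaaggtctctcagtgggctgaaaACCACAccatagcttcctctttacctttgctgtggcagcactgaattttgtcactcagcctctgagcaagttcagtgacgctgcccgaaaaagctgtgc
Mcemp1: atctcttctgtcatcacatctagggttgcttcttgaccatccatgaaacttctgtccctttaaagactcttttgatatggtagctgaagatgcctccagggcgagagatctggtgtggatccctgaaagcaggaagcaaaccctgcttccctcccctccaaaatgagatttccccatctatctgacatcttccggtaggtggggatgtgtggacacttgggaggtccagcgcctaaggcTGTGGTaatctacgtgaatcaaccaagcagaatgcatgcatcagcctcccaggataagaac
Counted from the start, the first base of the match lay at -49 in Cd101, -50 in Pilra, -11 in Mcemp1 and 29 in Cd300lf.

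The reads counted on genes ran from 2161929 to 5863484 a sample, and levels are given as counts per 1000000 (CPM) scaled by the TMM method of edgeR. Cbfb itself, which lies on chromosome 8, was read at 228, 216 and 199 CPM in WT and at 221, 215 and 290.2 CPM in Cbfb-cKO CD103+CD11b- DCs, and at 184, 161 and 217 CPM in WT and 179.6, 169.6 and 273 CPM in Cbfb-cKO CD103-CD11b+ DCs, so that whole-gene reads of Cbfb overlapped between the genotypes and do not check the labels. The subset labels were checked on marker genes. The cDC1 marker Xcr1 stood between 384 and 680.1 CPM in the 6 CD103+CD11b- samples and between 4.0 and 73.9 CPM in the 6 CD103-CD11b+ samples, and Itgam, which encodes CD11b, stood between 3.66 and 11.0 CPM in the former and between 77.9 and 222 CPM in the latter.

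In CD103+CD11b- DCs, 9 of the 10 genes were lower in all 3 Cbfb-cKO samples than in all 3 WT samples, with Dcstamp the exception. Of all genes tested, 10.6% had this pattern. Trem1 was at 0 counts in every Cbfb-cKO sample, and Siglece, Cd300a, Pilra and Mcemp1 were between 11.1 and 24.6 times lower than in WT in the fit to all samples. In CD103-CD11b+ DCs the fitted level in Cbfb-cKO samples was above that in WT samples for 7 of the 10 genes and below it for Trem1, Cd300a and Cd101, whose groups overlapped. For Mcemp1, of the former, the log2 fold change was 0.21, and -0.0058 without WT CD103-CD11b+ replicate 2. Dcstamp rose there to 5.16 times its WT level.

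**Figure D1:**
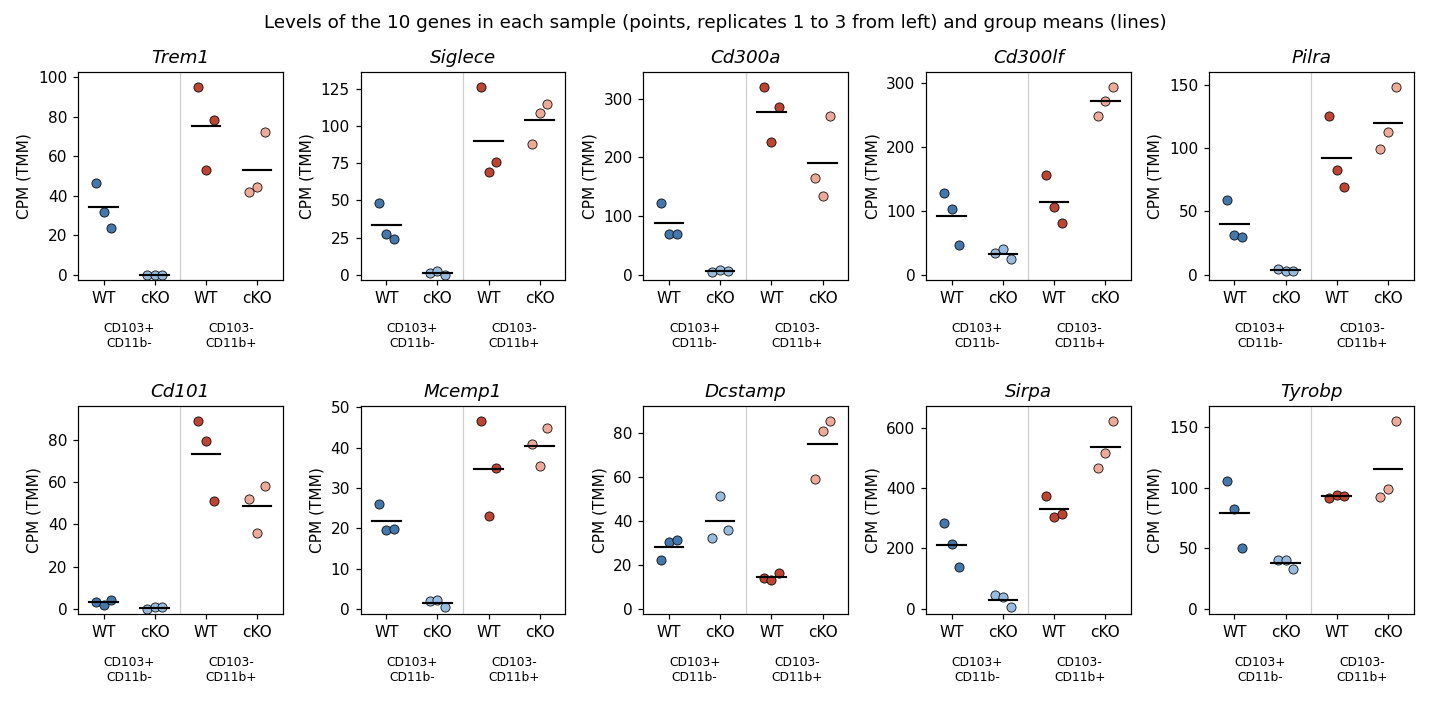
Levels of the 10 genes in CPM (linear axes starting at 0, 1 panel a gene) in the 3 samples of each group, points in the order of replicates 1 to 3 and lines at the group means. Trem1 lies at 0 in the 3 Cbfb-cKO CD103+CD11b- samples and between 23.8 and 95.1 CPM in the other 9.

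Trem1 (ENSMUSG00000042265, chromosome 17, 48232768 to 48246924, plus strand, GRCm38) encodes TREM-1, an amplifier of inflammatory signals in neutrophils and monocytes. Its level in CD103+CD11b- DCs was 46.5, 31.8 and 23.8 CPM in WT, from 422 reads in all, and 0 in each of the 3 Cbfb-cKO samples. No Cbfb-cKO sample came near the lowest WT sample. A count of 0 over the 3 libraries allows, by the 3 counts that it could hide, up to 0.269 CPM, so Trem1 was at least 127-fold lower than in WT, and this limit covers counting error only. In bulk samples such as these, fewer cells that make an RNA and less RNA in each cell cannot be told apart. In CD103-CD11b+ DCs Trem1 stood at 95.1, 53.0 and 78.2 CPM in WT and 42.0, 44.3 and 72.4 CPM in Cbfb-cKO samples, and the groups overlapped (log2 fold change -0.53, standard error 0.32).

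Tyrobp (ENSMUSG00000030579, chromosome 7, 30413760 to 30417585, plus strand) encodes DAP12, through which TREM-1 signals. It stood at 106, 82.6 and 50.1 CPM in WT and at 40.2, 40.3 and 32.9 CPM in Cbfb-cKO CD103+CD11b- DCs (log2 fold change -1.06, standard error 0.26). All 3 Cbfb-cKO samples lay under the lowest WT sample, replicate 3, yet the adaptor kept a mean of 37.8 ± 4.25 CPM (SD, n = 3) where Trem1 was at 0. In CD103-CD11b+ DCs it stood at 91.4, 94.0 and 93.1 CPM in WT and 92.5, 99.2 and 155 CPM in Cbfb-cKO samples (log2 fold change 0.31, standard error 0.25). Its 2 lower Cbfb-cKO samples lay inside or just above the WT range, and replicate 3 stood apart.

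Siglece (ENSMUSG00000030474, chromosome 7, 43651070 to 43660161, minus strand) encodes a receptor for sialic acids. It was at 48.2, 27.7 and 23.8 CPM in WT and at 1.33, 2.20 and 0 CPM in Cbfb-cKO CD103+CD11b- DCs (log2 fold change -4.62, standard error 0.54). These Cbfb-cKO values rest on 15 reads in all, against 409 in WT, and without Cbfb-cKO CD103+CD11b- replicate 2 the fold change came to -5.28 on the log2 scale. In CD103-CD11b+ DCs it was at 127, 69.0 and 75.6 CPM in WT and at 88.0, 109 and 115 CPM in Cbfb-cKO samples, and the ranges overlapped.

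Cd300a (ENSMUSG00000034652, chromosome 11, 114890041 to 114904654, plus strand) and Cd300lf (ENSMUSG00000047798, chromosome 11, 115116214 to 115133992, minus strand) belong to the same gene cluster and encode receptors for phospholipids on dying cells. Cd300a stood at 122, 69.1 and 70.0 CPM in WT and at 4.88, 8.05 and 5.87 CPM in Cbfb-cKO CD103+CD11b- DCs (log2 fold change -3.78, standard error 0.35). Cd300lf stood at 127, 103 and 46.1 CPM in WT and at 34.4, 40.3 and 24.2 CPM in Cbfb-cKO samples (log2 fold change -1.46, standard error 0.35). The Cd300lf groups were narrowly apart, since WT replicate 3 lay close to the highest Cbfb-cKO sample. In CD103-CD11b+ DCs the fold changes of these cluster members differed in sign. Cd300a was at 320.4, 226 and 286 CPM in WT and at 165, 135 and 271 CPM in Cbfb-cKO samples (log2 fold change -0.55, standard error 0.29), with overlapping groups. Cd300lf was at 156, 106 and 80.9 CPM in WT and at 248, 272 and 294 CPM in Cbfb-cKO samples (log2 fold change 1.24, standard error 0.34), with every Cbfb-cKO sample above every WT sample. Cd300lf lies across part of Rab37 on the other strand without shared exons.

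Pilra (ENSMUSG00000046245, chromosome 5, 137821952 to 137836281, minus strand) is the inhibitory member of the PILR pair. It stood at 58.8, 30.9 and 30.1 CPM in WT and at 4.66, 2.68 and 3.13 CPM in Cbfb-cKO CD103+CD11b- DCs (log2 fold change -3.47, standard error 0.37). In CD103-CD11b+ DCs it was at 125, 82.3 and 68.9 CPM in WT and at 99.004, 113 and 148 CPM in Cbfb-cKO samples, and the groups overlapped. Its exons overlap Zcwpw1 on the other strand, and the counting did not use strand.

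Sirpa (ENSMUSG00000037902, chromosome 2, 129592835 to 129632228, plus strand) encodes the receptor for the "do not eat me" signal CD47 and is widely used to mark cDC2 cells. It stood at 283, 214 and 137 CPM in WT and at 47.3, 40.3 and 5.08 CPM in Cbfb-cKO CD103+CD11b- DCs (log2 fold change -2.74, standard error 0.53). Replicate 3 was the lowest of its group in both genotypes. Without the lowest sample, Cbfb-cKO replicate 3, the log2 fold change was -2.27, which was also the smallest over the samples left out in turn. In CD103-CD11b+ DCs Sirpa was at 374, 304 and 314 CPM in WT and at 466, 515 and 621 CPM in Cbfb-cKO samples (log2 fold change 0.69, standard error 0.49), with all 3 Cbfb-cKO samples above the WT samples.

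Cd101 (ENSMUSG00000086564, chromosome 3, 100993529 to 101029556, minus strand) encodes a surface protein used to mark CD103+CD11b+ DCs of the gut, a subset that was not sequenced here. In CD103+CD11b- DCs it was close to the limit of counting, at 3.42, 1.83 and 4.20 CPM in WT and 0, 0.976 and 0.782 CPM in Cbfb-cKO samples, from 44 and 6 reads. In CD103-CD11b+ DCs it stood at 88.9, 79.6 and 50.9 CPM in WT and at 52.1, 35.9 and 58.1 CPM in Cbfb-cKO samples (log2 fold change -0.59, standard error 0.38). Of the WT samples, replicate 3 lay inside the Cbfb-cKO range.

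Mcemp1 (ENSMUSG00000013974, chromosome 8, 3665754 to 3669259, plus strand) encodes a small membrane protein of mast cells and other myeloid cells. It was at 26.0, 19.7 and 19.7 CPM in WT and at 1.997, 2.20 and 0.391 CPM in Cbfb-cKO CD103+CD11b- DCs (log2 fold change -3.70, standard error 0.41), and at 46.6, 23.0 and 34.9 CPM in WT and 40.9, 35.5 and 44.9 CPM in Cbfb-cKO CD103-CD11b+ DCs. The groups were apart in the former subset and overlapped in the latter. The 6 mast cell markers summed to 294 to 419 CPM over all samples, the larger part of it Kit in each sample, which stood between 221 and 418 CPM. Gata2 stood between 1.14 and 9.05 CPM in CD103+CD11b- DCs, and at 24.5, 73.0 and 82.9 CPM in WT and 13.5, 26.4 and 1.53 CPM in Cbfb-cKO CD103-CD11b+ DCs. Of the others, Fcer1a was at 0 throughout, Mcpt1 and Mcpt2 were each at 0 in all but 1 sample, and Cpa3 did not pass 3.52 CPM. Their part in the levels of Mcemp1 was not tested.

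Dcstamp (ENSMUSG00000022303, chromosome 15, 39745930 to 39760938, plus strand) ran the other way. It stood at 22.2, 30.2 and 31.2 CPM in WT and at 32.2, 51.3 and 36.0 CPM in Cbfb-cKO CD103+CD11b- DCs, and every Cbfb-cKO sample was above the WT samples by a small margin (log2 fold change 0.51, standard error 0.22). In CD103-CD11b+ DCs it stood at 14.1, 12.99 and 16.3 CPM in WT and at 58.8, 80.9 and 85.2 CPM in Cbfb-cKO samples (log2 fold change 2.37, standard error 0.23). Here the 2 groups were far apart, and the lowest Cbfb-cKO sample was above the highest WT sample of either subset.

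**Figure D2:**
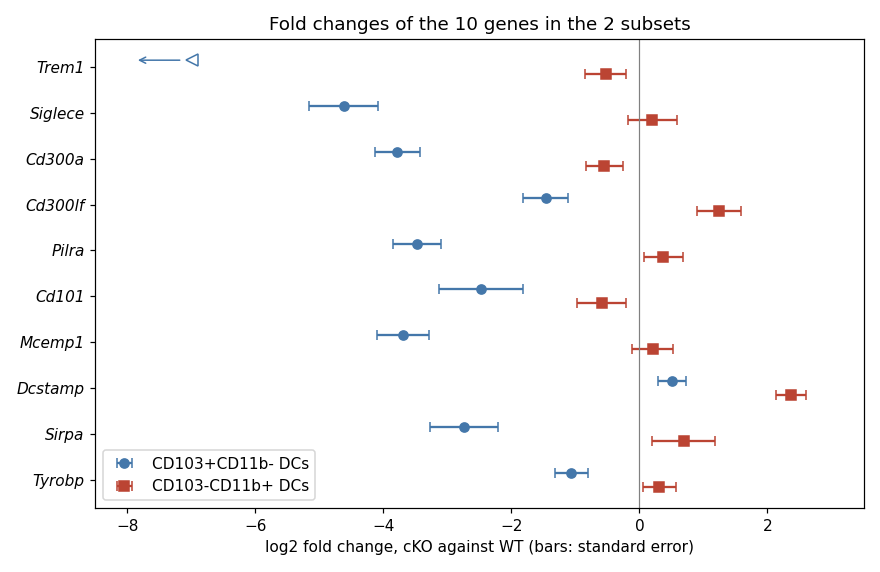
Log2 fold change of each of the 10 genes between Cbfb-cKO and WT samples in CD103+CD11b- DCs (circles) and CD103-CD11b+ DCs (squares), with the standard error of the edgeR fit as bars, and for Trem1 in CD103+CD11b- DCs an open triangle with an arrow at the limit that 3 counts set. Apart from Trem1, below them, and Dcstamp, above, the circles lie between -4.62 and -1.06, while the squares other than that of Dcstamp lie between -0.59 and 1.24.

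Genes were called at a false discovery rate (FDR) under 0.05 and a fold change over 1.3, with the quasi-likelihood test of edgeR, adjusted by the Benjamini-Hochberg method over the 20580 genes that reached 5 counts in any of the 12 samples. All 10 genes passed that filter, which a gene can pass through its highest group alone. In CD103+CD11b- DCs, 6 of the 10 were called, all of them lower in Cbfb-cKO samples, where 0.797% of all genes tested were called lower and 1.02% in either direction. They were Trem1, Siglece, Cd300a, Pilra, Mcemp1 and Sirpa. The 9 genes with non-overlapping groups and lower Cbfb-cKO values compare with 10.6% of all genes tested, and the 1 with higher values with 7.51%. The median log2 fold change was -3.11 for the 10 genes and -0.02 for all genes tested. In CD103-CD11b+ DCs only Dcstamp was called by this test, where 1.11% of all genes were called higher and 1.61% in either direction. Dcstamp, Cd300lf and Sirpa had non-overlapping groups with higher Cbfb-cKO values, a pattern in 9.75% of all genes. The median was 0.26, against -0.06 for all genes tested. Since the list was drawn up from these comparisons, nothing is read from its shares. Trem1, Siglece, Cd300a, Pilra and Mcemp1 kept their call in CD103+CD11b- DCs under each of 18 alternative settings, which include leaving out each sample, whereas Sirpa kept it in 8 of the 18. These settings reuse the samples from which the list was drawn up, so a kept call shows only how far it depends on the setting. Cd300lf in CD103+CD11b- DCs was called in addition by DESeq2, with no filter, with a replicate block and without WT CD103+CD11b- replicate 3, Tyrobp by DESeq2, with no filter and without WT CD103+CD11b- replicate 3, and Cd101 by DESeq2.

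The difference of the 2 genotype effects, CD103-CD11b+ minus CD103+CD11b-, was above 0 for each of the 10 genes. It was called for 7 of them, where 0.554% of all genes were called in that direction and 0.651% in either. On the log2 scale it was 4.82 (standard error 0.67) for Siglece, 3.91 (0.52) for Mcemp1, 3.85 (0.48) for Pilra, 3.23 (0.45) for Cd300a and 2.71 (0.49) for Cd300lf. Trem1 had a difference of at least 6.46, from the limit on its count of 0. For Dcstamp, 1.86 (0.31) stood for a larger rise in CD103-CD11b+ DCs, not for a loss in the other subset. Sirpa at 3.43 (0.72), Cd101 at 1.89 (0.76) and Tyrobp at 1.37 (0.36) were not called. The value of Cd101 rests on 6 reads in Cbfb-cKO CD103+CD11b- DCs and ran from 1.20 to 2.71 with a sample left out. Leaving out Cbfb-cKO CD103+CD11b- replicate 1 brought the 7 calls to 3, while that of Siglece was 5.48 without Cbfb-cKO CD103+CD11b- replicate 2, and Cd300lf kept its call in 7 and Dcstamp in 10 of 17 alternative settings.

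Markers of other cell types were read beside these values. The summed level of 6 cDC2 markers in CD103+CD11b- DCs ran from 235 to 349 CPM in WT and from 79.4 to 96.9 CPM in Cbfb-cKO samples, and 3 of the 6, Irf4, Cd209a and Clec4a4, were called lower there, while Itgam went from 4.79, 3.66 and 4.53 CPM in WT to 5.99, 11.0 and 7.43 CPM in Cbfb-cKO samples. The sum of 4 plasmacytoid DC markers ran from 813 to 1836 CPM in WT and from 372 to 703 CPM in Cbfb-cKO samples. Siglech, the defining gene of that list and itself a Siglec, was at 464, 358 and 160 CPM in WT and 111, 149.9 and 18.0 CPM in Cbfb-cKO samples, the lowest values again being those of replicate 3. The 5 monocyte markers summed to 62.4 to 111 CPM in WT and 44.6 to 68.6 CPM in Cbfb-cKO samples, with Chil3 at 0. The 8 cDC1 markers summed to 4609 to 6891 CPM in WT and 5862 to 7523 CPM in Cbfb-cKO samples, and the 4 pan-DC markers to 1579 to 2428 and 1959 to 2285 CPM. Neutrophil markers, of which S100a8, S100a9 and Ly6g were at 0 in both CD103+CD11b- groups, summed to at most 9.27 CPM there, and macrophage markers to at most 65.4 CPM. The 4 eosinophil markers summed to 6.50 to 13.3 CPM in WT and 16.4 to 35.4 CPM in Cbfb-cKO samples of this subset. The larger part in each sample was a Siglec gene that is also in the wider list below, and none of the 3 tested was called. The part of cDC2 and plasmacytoid cells in the lower receptor levels was not tested.

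In CD103-CD11b+ DCs the 8 neutrophil markers summed to 47.1 to 60.0 CPM in WT and 105 to 165 CPM in Cbfb-cKO samples, most of it Csf3r, at 42.3, 39.3 and 36.4 CPM in WT and 84.6, 134 and 101 CPM in Cbfb-cKO samples, which was the 1 of 6 tested that was called higher (edgeR, log2 fold change 1.44, standard error 0.29, adjusted p = 0.0353). S100a8 and S100a9 did not pass 4.94 CPM in any of these samples and Ly6g did not pass 0.291 CPM. The 8 macrophage markers summed to 156 to 408 CPM in WT and 305 to 511 CPM in Cbfb-cKO samples, but without Adgre1 the other 7 summed to 168, 332 and 127 CPM in WT and 165, 275 and 95.9 CPM in Cbfb-cKO samples. Of the 8, 1 was called higher, Adgre1, the gene of F4/80, at 50.1, 76.0 and 29.7 CPM in WT and 140, 237 and 215 CPM in Cbfb-cKO samples (edgeR, log2 fold change 1.93, standard error 0.38, adjusted p = 0.0336), with groups that did not overlap. C1qa, of the complement component made by resident macrophages, stood at 28.4, 37.6 and 14.8 CPM in WT and 25.4, 34.7 and 14.8 CPM in Cbfb-cKO samples. Cd163, of a scavenger receptor of macrophages, was lower in all 3 Cbfb-cKO samples, at 7.05, 16.7 and 7.27 CPM in WT and 2.69, 4.997 and 4.59 CPM in Cbfb-cKO samples, but was not called. The 5 monocyte markers summed to 139.6 to 224 CPM in WT and 103 to 119.8 CPM in Cbfb-cKO samples, and the 4 plasmacytoid DC markers to 665 to 975.2 and 377 to 679.8 CPM. The larger part of the plasmacytoid sum was Tcf4 in each sample, whereas Siglech had means of 30.1 and 30.5 CPM. None of these 4 was called. The 4 eosinophil markers summed to 10.8 to 29.0 CPM in WT and 43.9 to 72.8 CPM in Cbfb-cKO samples. The larger part in each sample was a Siglec gene that is also in the wider list below. Prg2 stood at 2.74, 1.33 and 1.16 CPM in WT and 19.5, 25.2 and 6.63 CPM in Cbfb-cKO samples. Epx did not pass 0.449 CPM, Ccr3 had a mean of 2.82 CPM in each group, and none of the 3 eosinophil markers tested was called. The 6 cDC2 markers summed to 674 to 702 and 597 to 1037 CPM, and 1 of the 6 was called higher, Clec4a4, at 15.5, 9.66 and 9.60 CPM in WT and 36.8, 42.4 and 35.2 CPM in Cbfb-cKO samples (edgeR, log2 fold change 1.71, standard error 0.35, adjusted p = 0.0398). Itgae, the gene of CD103, was called lower, at 281, 138 and 150.1 CPM in WT and 81.5, 39.3 and 30.6 CPM in Cbfb-cKO samples (edgeR, log2 fold change -1.89, standard error 0.36, adjusted p = 0.0301). Their part in the higher levels of Dcstamp, Cd300lf and Sirpa was not tested.

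A wider list of 60 paired receptors, adaptors, ligands and signalling genes was drawn up from the same and from other receptor families. Of these, 54 could be tested. The wider list too was drawn up with results of these samples known, so its counts and p-values are not independent evidence. In CD103+CD11b- DCs 6 of the 54 were called, all lower in Cbfb-cKO samples, where 0.797% of all genes were, with a median log2 fold change of -0.31 against -0.02 for all genes. In CD103-CD11b+ DCs 3 of the 54 were called, all higher, where 1.11% of all genes were, with a median of 0.27 against -0.06. Their adjusted p-values come from the same edgeR test over all genes.

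The 6 that fell in CD103+CD11b- DCs came from several families. Treml2, a TREM-like receptor, stood at 20.5, 20.1 and 6.47 CPM in WT and 2.66, 2.93 and 1.56 CPM in Cbfb-cKO samples (edgeR, log2 fold change -2.65, standard error 0.45, adjusted p = 0.0233). Milr1, the inhibitory receptor allergin-1, stood at 23.9, 20.1 and 21.7 CPM in WT and 9.76, 7.32 and 9.39 CPM in Cbfb-cKO samples (edgeR, log2 fold change -1.31, standard error 0.22, adjusted p = 0.0233). Both had groups that did not overlap. Trem3, an activating neighbour of Trem1, was close to the limit, with 21 reads in the WT samples and 1 in the Cbfb-cKO samples, a ratio of 17.4 with a 95% exact interval from 2.80 to 719 that covers counting error only (edgeR, adjusted p = 0.0427). Cd33, a Siglec, stood at 378, 322 and 156 CPM in WT and 64.8, 65.4 and 12.1 CPM in Cbfb-cKO samples (edgeR, log2 fold change -2.56, standard error 0.51, adjusted p = 0.0465). Ceacam1, an ITIM-bearing adhesion molecule, had a log2 fold change of -1.94 (edgeR, adjusted p = 0.0473), and Cd300c2, an activating member of the CD300 cluster, had -1.05 (edgeR, adjusted p = 0.0497). These calls were close to the threshold. The count of 6 was 0 without WT CD103+CD11b- replicate 1 or replicate 2, or without Cbfb-cKO CD103+CD11b- replicate 1, and 15 by DESeq2. At an unadjusted p under 0.05, 25 of the 54 passed in the fit to all samples, where 10.5% of all genes did.

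The 3 that rose in CD103-CD11b+ DCs were Treml4, Cd22 and Sirpb1b. Treml4, a TREM-like receptor of DCs and macrophages, stood at 32.9, 18.7 and 22.1 CPM in WT and 80.6, 93.7 and 101 CPM in Cbfb-cKO samples (edgeR, log2 fold change 1.89, standard error 0.20, adjusted p = 0.00128). Cd22, an inhibitory Siglec best known from B cells, stood at 26.2, 34.3 and 22.4 CPM in WT and 136, 116 and 79.0 CPM in Cbfb-cKO samples (edgeR, log2 fold change 2.0006, standard error 0.26, adjusted p = 0.00521). B cell markers summed to 45.2, 65.3 and 12.5 CPM in the WT samples and 290.5, 65.4 and 22.4 CPM in the Cbfb-cKO samples, with Cbfb-cKO replicate 1 apart from the rest, and their part in the level of Cd22 was not tested. Sirpb1b, an activating SIRP that pairs with DAP12, stood at 7.05, 6.66 and 4.07 CPM in WT and 25.1, 34.5 and 30.1 CPM in Cbfb-cKO samples (edgeR, log2 fold change 2.32, standard error 0.49, adjusted p = 0.0445). It shares sequence with Sirpb1a and Sirpa, and reads with low mapping quality were removed, so the split between these genes is uncertain. Its call was lost without any 1 of the 6 CD103-CD11b+ samples, and also without WT or Cbfb-cKO CD103+CD11b- replicate 2, with adjusted p between 0.0594 and 0.128 in these edgeR fits.

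**Figure D3:**
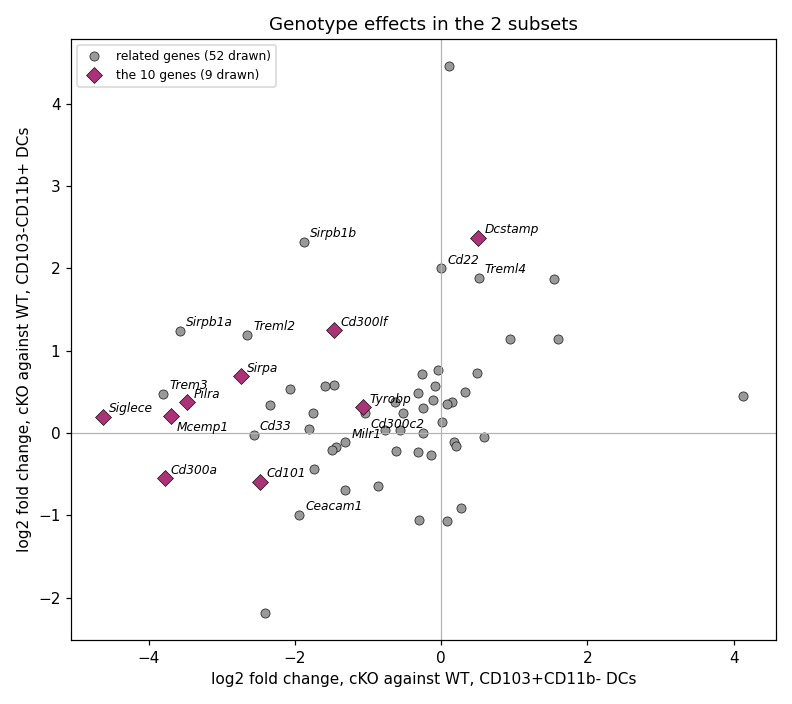
Log2 fold change between Cbfb-cKO and WT samples in CD103+CD11b- DCs (horizontal) and CD103-CD11b+ DCs (vertical) for 52 of the related genes (circles) and 9 of the 10 genes (diamonds), leaving out genes with 0 counts in a whole group, with names on the 10 genes and on the related genes called in either subset or in the difference. Cd22 lies near 0 on the horizontal axis and at 2.0006 on the vertical axis, and Treml4 lies at 0.51 and 1.89.

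The difference of the genotype effects was called for 4 related genes, where 0.554% of all genes were called in that direction. It was 3.85 for Treml2, 4.82 for Sirpb1a, 2.0025 for Cd22 and 1.37 for Treml4 on the log2 scale (edgeR, adjusted p = 0.0196, 0.0474, 0.0474 and 0.0492). The 4 calls were all lost when any 1 of 8 of the 12 samples was left out, and 22 of the 54 passed an unadjusted p under 0.05 in the fit to all samples, where 11.1% of all genes did. In CD103+CD11b- DCs Sirpb1a was counted 57 times in the WT samples and 4 times in the Cbfb-cKO samples, so that its value is loosely set. It was 4.16 without Cbfb-cKO CD103+CD11b- replicate 1. All 4 reads were in replicate 2, and without it the group is at 0 counts, so no value is given. Among signalling genes behind these receptors, picked out after their values were seen, those not called included Fgr, a Src family kinase of myeloid cells, in CD103+CD11b- DCs (edgeR, log2 fold change -1.59, standard error 0.38, adjusted p = 0.0838) and Syk in CD103-CD11b+ DCs (edgeR, log2 fold change 0.77, standard error 0.18, adjusted p = 0.0640).

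Between the subsets of WT mice, most of the 10 genes were higher in CD103-CD11b+ DCs. Cd101 differed most, with means of 3.15 ± 1.21 and 73.1 ± 19.8 CPM (SD, n = 3 each) (log2 fold change 4.51, standard error 0.46). It was followed by Cd300a at 1.68 (0.30), Siglece at 1.46 (0.40), Pilra at 1.22 (0.31) and Trem1 at 1.16 (0.32). Dcstamp was lower in CD103-CD11b+ DCs, at -0.95 (0.22). Mcemp1 at 0.69 (0.33), Sirpa at 0.65 (0.49), Cd300lf at 0.32 (0.34) and Tyrobp at 0.23 (0.26) were not called, and the last pair came to -0.06 and -0.08 without WT CD103+CD11b- replicate 3. So 5 were called higher and 1 lower, where 11.8% and 7.0% of all genes were, 18.8% in all. Without WT CD103+CD11b- replicate 2 the 6 calls came to 2. In the same comparison 7 of 8 macrophage, 3 of 6 neutrophil and 2 of 4 monocyte markers tested were called higher, and 1 monocyte marker lower. Their part in the levels of the 10 genes was not tested.

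Between the subsets of Cbfb-cKO mice, each of the 10 genes was higher in every CD103-CD11b+ sample than in every CD103+CD11b- sample and was called higher, where 9.26% of all genes were called higher, 16.1% were called in either direction and 18.4% had groups apart in that direction. These samples are also those of the genotype comparisons, so the 2 sets of values are not independent. The log2 fold change was 6.39 (standard error 0.58) for Cd101, 6.28 (0.54) for Siglece, 5.07 (0.38) for Pilra, 4.91 (0.36) for Cd300a and 4.59 (0.41) for Mcemp1. The value of Siglece was 6.94 without Cbfb-cKO CD103+CD11b- replicate 2, and that of Cd101 was 5.71 without replicate 1 and 7.22 without replicate 2 of that group. Trem1 was at least 197-fold higher. Lower values were those of Sirpa at 4.08 (0.56), Cd300lf at 3.03 (0.37), Tyrobp at 1.60 (0.26) and Dcstamp at 0.91 (0.22). The median over the 10 genes was 0.92 in WT and 4.75 in Cbfb-cKO mice, against 0.07 and 0.11 for all genes tested. Between the Cbfb-cKO subsets 5 of 8 macrophage, 2 of 6 neutrophil, 2 of 4 monocyte and 2 of 4 B cell markers tested were called higher. Their part was not tested.

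Of the 54 related genes, 22 were called higher and 3 lower in CD103-CD11b+ than in CD103+CD11b- DCs of WT mice, where 11.8% and 7.0% of all genes were, and 32 higher and 1 lower in those of Cbfb-cKO mice, where 9.26% and 6.81% were. Without WT CD103+CD11b- replicate 2 the 25 calls in WT mice came to 9, and without its replicate 1 or WT CD103-CD11b+ replicate 2 to 15. The lower ones were Treml4, Siglech and Inpp5d in WT and Ptpn11 in Cbfb-cKO mice. All 4 Fcγ receptor genes, which bind antibody-coated targets, were called higher in both. Macrophage markers, a list that also holds Fcgr1, moved with them. Of these 8 markers, 7 were called higher in CD103-CD11b+ DCs of WT mice and 5 in those of Cbfb-cKO mice. Their sums ran from 14.9 to 33.0 CPM in CD103+CD11b- and from 156 to 408 CPM in CD103-CD11b+ DCs of WT mice. The part of macrophages in the receptor levels was not tested. Fcgr2b, the inhibitory one, stood at 10.6, 11.0 and 8.41 CPM in CD103+CD11b- and 40.1, 77.3 and 40.7 CPM in CD103-CD11b+ DCs of WT mice (edgeR, log2 fold change 2.40, standard error 0.37, adjusted p = 0.00228). The activating Fcgr3 had a log2 fold change of 3.75 (edgeR, standard error 0.62, adjusted p = 0.00305). Fcgr1, the gene of CD64, had 4.56 (edgeR, standard error 0.82, adjusted p = 0.00466) with means of 0.276 and 7.56 CPM, and 5.37 without WT CD103+CD11b- replicate 3. The study's gate for gut DCs took CD64-negative cells. Lilra5, an activating LILR, had 2 reads in CD103+CD11b- and 62 in CD103-CD11b+ DCs of WT mice, a ratio of 36.2 (95% exact interval 9.60 to 305, edgeR, adjusted p = 0.00441). Cd22 was higher in CD103-CD11b+ DCs of WT mice by 1.82 (edgeR, standard error 0.27, adjusted p = 0.00200) and Treml4 was lower, at -1.45 (edgeR, standard error 0.19, adjusted p = 0.00101).

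Per length, as reads per kilobase of exon per 1000000 (RPKM), Tyrobp was the most abundant of the 10 genes in each group. In WT CD103+CD11b- DCs it was at 119 ± 41.8 RPKM (SD, n = 3), followed by Sirpa at 43.1 ± 14.9. Cd300a, Siglece, Cd300lf, Mcemp1, Pilra, Trem1 and Dcstamp came next at 18.4, 18.0, 17.9, 14.6, 12.9, 11.4 and 10.5 RPKM, and neighbours in that order lay closer than their spread. Cd101 was last at 0.946 ± 0.363. In the same subset of Cbfb-cKO mice Tyrobp was at 56.6 ± 6.38 RPKM and Dcstamp came next at 14.9 ± 3.79, above Cd300lf at 6.403 ± 1.57 and Sirpa at 6.29 ± 4.60. Cd300a, Pilra, Mcemp1 and Siglece were between 0.636 and 1.32 RPKM, Cd101 at 0.176 and Trem1 at 0.

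In WT CD103-CD11b+ DCs Tyrobp was at 139 ± 1.93 RPKM, Sirpa at 67.3 ± 7.76, Cd300a at 58.5 ± 10.1 and Siglece at 48.9 ± 17.1, and neighbours among the latter 3 lay closer than their spread. Dcstamp was lowest there at 5.43 ± 0.630 RPKM. In Cbfb-cKO CD103-CD11b+ DCs Dcstamp was at 28.1 ± 5.31 RPKM, near Mcemp1 at 27.0 ± 3.16 and above Trem1 at 17.7 ± 5.66 and Cd101 at 14.6 ± 3.45, whereas Sirpa reached 109 ± 16.1 and Cd300lf 52.7 ± 4.46. Dcstamp was thus the least abundant of the 10 genes in WT and not in Cbfb-cKO samples of this subset.

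**Figure D4:**
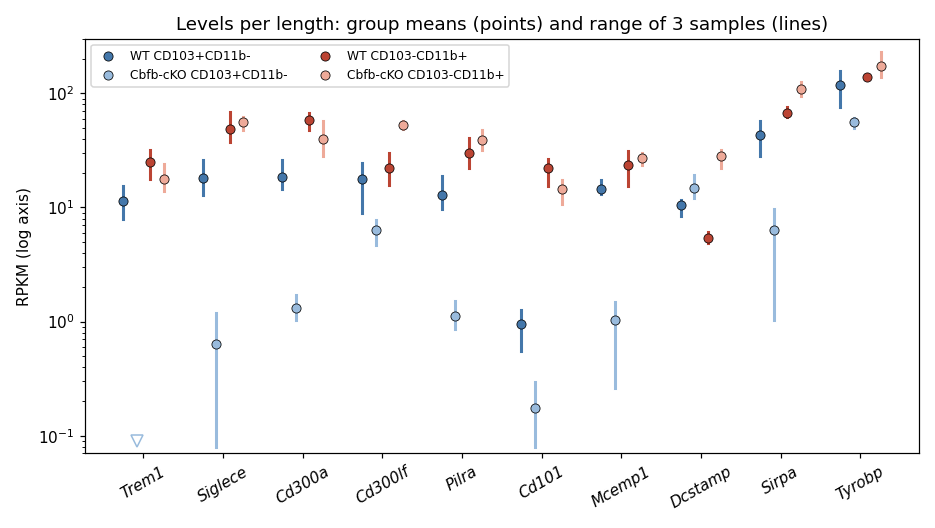
RPKM of the 10 genes on a log axis, with points for group means and lines for the range of 3 samples, lines that reach the lower edge standing for a sample at 0 and an open triangle for Trem1 at 0 in the 3 Cbfb-cKO CD103+CD11b- samples. In that group Tyrobp stays at 56.6 RPKM while Siglece, Cd300a, Pilra, Cd101 and Mcemp1 lie under 1.33 RPKM.

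Genes whose log2 CPM followed a gene of the list most closely over the 12 samples were named as a description, since the samples share 4 groups and libraries. For Trem1 they were B4galt6 (Pearson r = 0.988), Cd300a (0.983) and Stra6l (0.981). For Cd300a they were B4galt6 (0.988), Trem1 (0.983) and Pcyt1a (0.982), so that the activating Trem1 and the inhibitory Cd300a were among each other's 3 nearest of 20580 genes. B4galt6, which encodes a lactosylceramide synthase, had means of 142 and 22.1 CPM in WT and Cbfb-cKO CD103+CD11b- DCs and 249.3 and 232 CPM in the other subset. For Cd101 they were Tlr2 (0.981), the gene of a receptor for bacterial lipoproteins, Ston2 (0.978) and B230362B09Rik (0.976), and Tlr2 had means of 7.87 and 3.80 CPM in CD103+CD11b- and 37.2 and 30.8 CPM in CD103-CD11b+ DCs.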

How the data were processed

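RNA-seq libraries made by RamDA-seq adjusted for bulk input were available for 12 samples in 4 groups, assigned by the genotype and subset in the sample titles. The authors trimmed the reads (Trim Galore), mapped them with STAR 2.7 to mm10 (GRCm38), removed unmapped, low-quality and duplicate reads, and counted reads per gene with htseq-count without using strand. The deposited values are raw counts per gene, not normalized, 1 file a sample. Of a sample's counted reads, 32.7% to 38.8% fell on genes. Its 5 summary rows, which name no gene, were not used.

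Symbols, positions and exon lengths came from GENCODE M21, which matched 53620 of 53801 gene IDs (99.7%), and promoter windows from RefSeq (GRCm38.p6). Counts were normalized by TMM and tested with glmQLFit and glmQLFTest of edgeR 4.0.16 in R 4.3.3 (with limma 3.58.1), all 4 groups in the same model, for the 20580 genes that reached 5 counts in any sample. Python 3.11.15 with pandas 2.3.3 made the tables and matplotlib 3.10.9 the plots. The 10 genes, the related genes and the markers were chosen with earlier results of these data known. Named related genes were those called in a genotype comparison or in the difference, and the 6 with the smallest p between the WT subsets. Fgr, Syk, Siglech, Inpp5d, Ptpn11 and single markers were named in addition, after their values were seen. The wider list also holds 1 gene that is not reported here by name. Nearest genes were the 3 with the highest Pearson r for Trem1, Cd101 and Cd300a.

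Samples of the 2 groups of a comparison share replicate numbers. Deviations of same-numbered samples from their group means correlated across genes at 0.112, 0.321 and 0.354 between the subsets of Cbfb-cKO mice. In each of the other comparisons at least 1 of the 3 pairs did not correlate above 0.1. Replicate 2 of WT and of Cbfb-cKO CD103-CD11b+ DCs, from mice of different genotype, correlated at 0.422, so such values cannot tell which samples are paired. The main fits used no pairing. Alternatives were RLE size factors, filterByExpr, no filter, DESeq2 1.42.0, a replicate block, fits to 6 samples and leaving out each sample. The procedure was also run on simulated counts with changes in the Cbfb-cKO CD103+CD11b- samples alone, and nothing is read from that run here. Depth ranged from 2161929 to 5863484 counts on genes, and limits from counts cover counting error only. Replicates of a group differed by more than sampling noise (chi-square per degree of freedom from 2.62 to 25.9 over pairs).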

Additional observations from a re-analysis of the deposited data

Results flagged for a closer look

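The interaction test in edgeR passed the threshold for 4 related genes, from a list drawn up with results of these samples known, with differences of the genotype effects of 4.815 for Sirpb1a, 3.85 for Treml2, 2.002 for Cd22 and 1.373 for Treml4 (CD103-CD11b+ minus CD103+CD11b-, log2 scale). These 4 calls were lost when any 1 of 8 of the 12 samples was left out. The same edgeR test called 7 of the 10 genes, but their choice rests on these samples, so their differences are a description from which nothing is read. The difference was at least 6.459 for Trem1, 4.819 for Siglece, 3.908 for Mcemp1, 3.847 for Pilra, 3.233 for Cd300a, 2.707 for Cd300lf and 1.859 for Dcstamp. For Trem1, Siglece, Mcemp1, Pilra and Cd300a the value comes mostly from lower Cbfb-cKO levels in CD103+CD11b- DCs, for Dcstamp mostly from higher Cbfb-cKO levels in CD103-CD11b+ DCs, and for Cd300lf from both, with log2 fold changes of -1.46 and 1.24. The cDC2 and plasmacytoid DC markers that were lower in the Cbfb-cKO CD103+CD11b- samples are given beside the levels above, and their part was not tested.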

How the results depend on the processing

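Alternatives of the fold changes were computed for the 10 genes and 14 related genes, for Trem1 only where neither group was at 0. None of these that was called changed its sign, whereas some that were not called did. These were Tyrobp and Cd300lf between the WT subsets (0.23 and 0.32, lowest values -0.077 and -0.059 with a sample left out) and Mcemp1 in CD103-CD11b+ DCs (0.21, lowest -0.0058), beside 16 values of related genes. In CD103+CD11b- DCs the 210 genes called became 320 with no filter, 655 by DESeq2 and 522 with the replicate block, and the 6 related genes became 3 with RLE size factors, 11 with no filter, 15 by DESeq2, 12 with the replicate block and 1 in a fit to the 6 samples alone. In CD103-CD11b+ DCs the 331 genes became 1136 by DESeq2, 849 with the block and 29 in a fit to 6 samples. Of the 10 genes, 2 were called there by DESeq2 and with the block, Cd300lf joining Dcstamp, and the 3 related genes became 5 with no filter, 7 by DESeq2, 6 with the block and 0 in the edgeR fit to 6 samples, against 16 at an unadjusted p under 0.05 in the fit to all samples, where 17.4% of all genes passed. Between the WT subsets, 3860 genes became 2510 in a fit to 6 samples. For the difference of effects, 134 genes became 205 with no filter, 502 by DESeq2 and 328 with the block, and the 4 related genes 9 with no filter and 13 by DESeq2. The mean of Tyrobp in WT CD103-CD11b+ DCs was 91.3 CPM on raw totals, against 92.8. Between the Cbfb-cKO subsets the replicate block changed no call of the 10 genes.

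With each sample left out in turn, calls among all genes ran from 46 to 241 and from 109 to 517 for the genotype in CD103+CD11b- and CD103-CD11b+ DCs, from 1408 to 4373 and from 2118 to 3637 between the subsets of WT and Cbfb-cKO mice, and from 29 to 208 for the difference. Those of the 10 genes ran from 5 to 8, 1 to 2, 2 to 6, 9 to 10 and 3 to 8, and those of the related genes from 0 to 9, 2 to 5, 9 to 29, 29 to 34 and 0 to 6, in the same order. The 6 calls of the 10 genes between the WT subsets became 2 without WT CD103+CD11b- replicate 2 and 3 without its replicate 3 or WT CD103-CD11b+ replicate 1. Without WT CD103+CD11b- replicate 3, 2 of the 10 genes and 5 related genes were called in CD103-CD11b+ DCs. The 25 related genes between the WT subsets became 9 without WT CD103+CD11b- replicate 2, and 15 without its replicate 1 or WT CD103-CD11b+ replicate 2. In the difference, edgeR called 0 related genes without WT CD103+CD11b- replicate 1 or 2, WT CD103-CD11b+ replicate 2 or 3, Cbfb-cKO CD103+CD11b- replicate 1 or 3 or Cbfb-cKO CD103-CD11b+ replicate 1 or 2, against 22 at an unadjusted p under 0.05 with all samples. The cause was not tested, except that leaving out samples leaves fewer of them. Depth limits Trem1, Cd101, Siglece and Mcemp1 in Cbfb-cKO CD103+CD11b- DCs, where between 0 and 19 reads in all stand behind each gene.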
